A study of Sus scrofa with 16 samples.

Results

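The 8 arrays described here are the left ventricles of sham-operated pigs, 8 of the 16 arrays of a swine study in which the other 8 came from pigs with myocardial infarction. They were taken as every array whose title names it as Sham, with no measured value used in the choice, and are called Sham 1 to Sham 8 as in the titles. Each animal was a Yorkshire x Landrace pig of 2 to 3 months, sampled 3 weeks after surgery, and the group held 4 females (Sham 1, 3, 5 and 7) and 4 neutered males (Sham 2, 4, 6 and 8). All 8 underwent the sham operation, so the tissue is non-infarcted myocardium after surgery, and the labels do not say which region of the ventricle was taken. RNA of frozen, crushed tissue was hybridised to an Affymetrix pig array, and the values are normalised log2 signals, on which 1 unit is a 2-fold difference. The RNA is that of the whole tissue, so fewer cells of a type and less RNA per cell cannot be told apart.

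Ventricular muscle is filled with sarcomeres, in which myosin motors pull on thin filaments that troponin switches on when calcium rises. That contraction is fed mainly by mitochondria, which burn fatty acids, lactate and glucose, and the creatine kinase system carries the high-energy phosphate from them to the myofibrils. Around the muscle cells lie capillary endothelium, pericytes, fibroblasts that lay down collagen, and resident macrophages, which outnumber the myocytes but are much smaller.

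Of 24123 probe sets, 124 were manufacturer's controls, and the remaining 23999 were analysed. A single gene symbol was given for 10069 of them, 198 carried several and 13732 none, which left 6765 named genes, each read from its probe set with the highest Sham mean. The highest value of the 23 control probe sets without a target was 4.85, and 5932 genes (87.7%) had a Sham mean above it. All 8 arrays had the same median signal, 6.24, and any pair of them correlated over all probe sets with r between 0.977 and 0.991. The spiked control RNAs split the arrays into Sham 1 to 5 (set A) and Sham 6 to 8 (set B): the poly-A spikes minus the hybridisation controls gave -2.58 to -1.75 in the first and -4.82 to -4.72 in the second. For the actin control, the gap between its 3' and 5' probe sets, which widens as RNA is shortened, was 2.58 ± 0.30 (SD, n = 5) in set A and 1.35 ± 0.14 (SD, n = 3) in set B, without overlap (two-sided exact permutation p = 0.0357, the smallest that 5 against 3 can give; 0.179 after Benjamini-Hochberg adjustment over 5 tests). The same gap for GAPDH ran the other way, -0.22 ± 0.06 (SD, n = 5) in set A and -0.05 ± 0.17 (SD, n = 3) in set B, with overlap (two-sided exact permutation p = 0.107, adjusted 0.268). Sex was balanced over the whole group but not over the sets, with 3 females among the 5 of set A and 1 among the 3 of set B.

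Transcripts of the contractile machinery gave the highest signals. MYL2, the ventricular regulatory light chain of myosin, led with 14.63 ± 0.05 (SD, n = 8; lowest 14.55, median 14.63, highest 14.71). MYH7, the slow beta-myosin heavy chain that is the main cardiac motor of large mammals, stood at 14.53 ± 0.05, between 14.46 and 14.58. TNNI3, the cardiac inhibitory subunit of troponin, stood at 14.47 ± 0.06, between 14.38 and 14.54. These muscle genes had both the brightest and some of the steadiest signals, and no animal was more than 0.16 from another for any of the 3. MYL3 (14.26), the ventricular essential light chain, TNNC1 (14.26), the calcium-binding subunit of troponin, TNNT2 (13.91), the subunit that anchors troponin to tropomyosin, and TPM1 (13.65), tropomyosin itself, were also among the 25 genes of highest signal. Probe sets differ in how strongly they bind their target, so this is an order of signals and not of transcript numbers.

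Of the 5 genes given as markers of this tissue, MYL2, MYH7 and TNNI3 were thus 3 of the 4 brightest genes. FABP3, the fatty acid carrier of heart muscle, was bright but below the first 25, at 13.14 ± 0.26, from 12.68 in Sham 7 to 13.43 in Sham 4. No probe set carried the symbol MB, myoglobin, so it was not measured here. Over the 17 measured genes of the sarcomere and Z-disc the median signal was 13.51, a median percentile of 99.8 among all probe sets, and all 17 were above background. ACTC1, cardiac alpha-actin, stood at 13.51 ± 0.11. The Z-disc and sarcomere list also held the dimmest of these genes, NEBL, the cardiac homologue of nebulin, at 6.96, which ranged from 6.11 in Sham 8 to 7.68 in Sham 2.

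The tissue carried ventricular and not atrial markers at high signal. The 4 measured ventricular markers had a median of 14.40, and their dimmest, the transcription factor HEY2, stood at 8.99. The 6 measured atrial markers had a median of 7.13. MYL4, the atrial essential light chain, stood at 8.28 ± 0.27, and SLN, the atrial regulator of the calcium pump, at 5.98 ± 0.71 with its highest value, 7.40, in Sham 2. NPPA, the atrial natriuretic peptide, ran from 7.85 in Sham 1 to 9.69 in Sham 3.

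**Figure D1:**
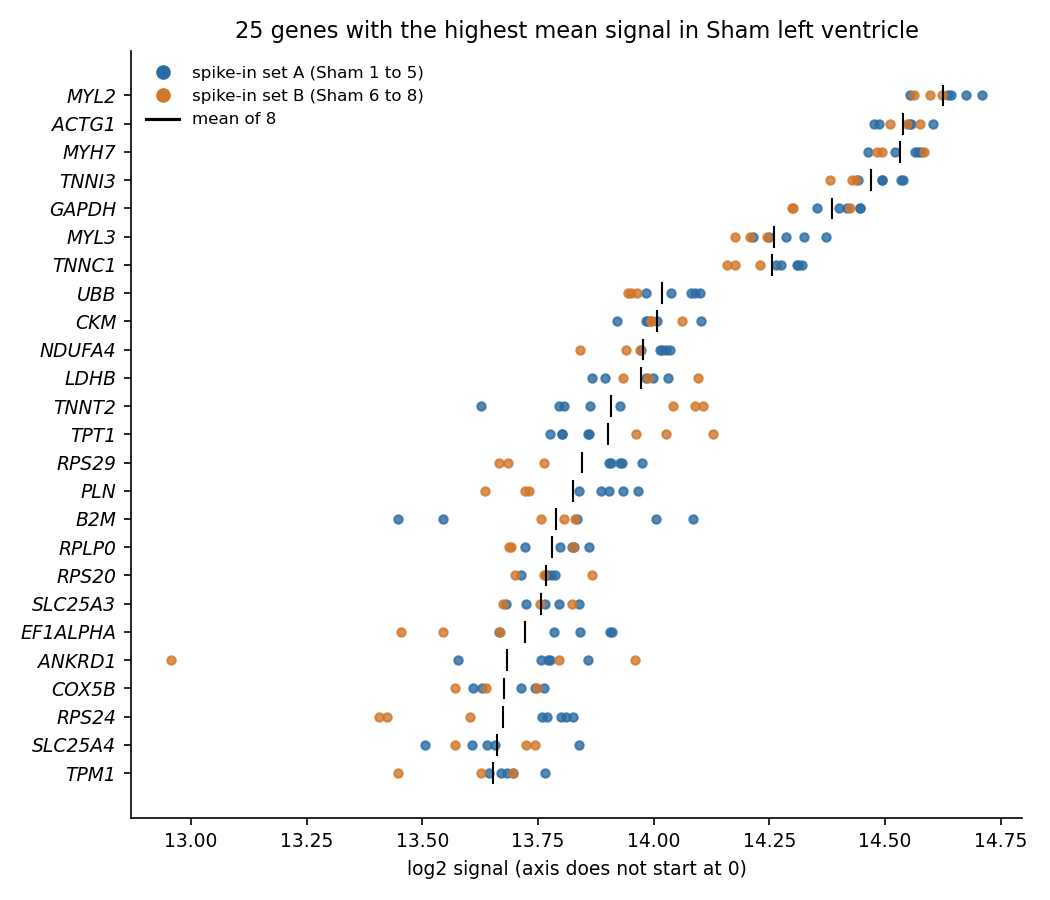
Log2 signal (x axis) of the 25 genes of highest mean signal in Sham left ventricle (rows); each point is 1 of 8 animals, coloured by spike-in set, and the black bar is the mean. The points of most genes lie close together, with MYL2, MYH7 and TNNI3 at 14.38 to 14.71, while ANKRD1 has 1 low point at 12.96 (Sham 6).

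Genes of energy supply were also bright. CKM, the muscle creatine kinase, stood at 14.01 ± 0.05, with a lowest value of 13.92 and a highest of 14.10. NDUFA4, a subunit of the respiratory chain, stood at 13.98 ± 0.06, and COX5B, a subunit of cytochrome oxidase, at 13.68 ± 0.07. SLC25A4 (13.66 ± 0.11) and SLC25A3 (13.76 ± 0.06), which carry adenine nucleotides and phosphate across the inner mitochondrial membrane, were in the same range. All 54 measured nuclear genes of oxidative phosphorylation were above background, with a median of 12.34 and a median percentile of 98.9, and 15 of them were among the 100 brightest genes. The genes encoded in mitochondrial DNA had no named probe set.

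Fuel pathways upstream of the respiratory chain were somewhat lower. The citric acid cycle together with pyruvate use (23 measured genes) had a median of 11.46, fatty acid uptake and oxidation (30 genes) 10.89, and glycolysis with glucose uptake (19 genes) 10.86. MDH1, the cytosolic malate dehydrogenase, led the first of these lists with 13.51 ± 0.08. ACADM, which starts the oxidation of medium-chain fatty acids, stood at 12.53 ± 0.16, and HADHB, part of the trifunctional protein of long-chain oxidation, at 12.75 ± 0.20. GAPDH (14.39 ± 0.06) and LDHB, the heart form of lactate dehydrogenase (13.97 ± 0.07), were both among the 25 brightest, whereas LDHA, the other lactate dehydrogenase subunit, stood at 10.57 ± 0.20.

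Calcium handling spanned a wide range of signals. PLN, phospholamban, which restrains the calcium pump, stood at 13.83 ± 0.12, and ATP2A2, the pump itself, at 13.45 ± 0.06, from 13.35 to 13.52. RYR2, the calcium release channel, stood at 11.48 ± 0.41, lowest in Sham 7 (10.86) and highest in Sham 2. The 13 measured genes of the group had a median of 10.60. GJA1, the main gap junction protein of ventricular myocytes, stood at 12.51 ± 0.12.

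General cell machinery supplied most of the other bright signals. The 58 measured genes of cytosolic ribosomal proteins had a median of 13.07 and a median percentile of 99.5, and 34 of them were among the 100 brightest genes. RPS29 (13.85), RPLP0 (13.78), RPS20 (13.77) and RPS24 (13.67) were in the first 25, together with UBB, a polyubiquitin gene (14.02), TPT1 (13.90), B2M, the light chain of class I histocompatibility molecules (13.79), ACTG1, cytoplasmic gamma-actin (14.54), and a gene listed as EF1ALPHA (13.72). ACTG1 is close in sequence to the other actins, so its probe set may also read their transcripts, which was not tested. ANKRD1, a stress-responsive protein of the sarcomere, was the 1 gene among the 25 with a range of at least 1 unit, from 12.96 in Sham 6 to 13.96 in Sham 8; its second, dimmer probe set (7.99 ± 0.92) was not low in Sham 6 (8.64), where the lowest value was 6.85 in Sham 1. Of the 100 brightest probe sets, 34 had no single gene symbol and are not described.

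The cells between the muscle fibres were represented at intermediate signals. Fibroblast markers (11 measured, all above background) had a median of 10.32, led by VIM, the intermediate filament of mesenchymal cells (12.68), and DCN, the small proteoglycan decorin (12.67). SPARC, a collagen-binding matrix protein, stood at 13.32 ± 0.31, and MGP, the matrix protein that holds back calcification, at 12.88 ± 0.29. Smooth muscle and pericyte markers (9 measured) had a median of 10.35, with RGS5, a pericyte marker, at 11.78. Endothelial markers (12 measured) had a median of 8.54, led by PECAM1 (10.58) and CDH5 (10.34), adhesion proteins of endothelial junctions. Macrophage markers (10 measured) had a median of 9.16, with C1QC, a complement subunit made by macrophages, at 10.63, and CD163, the scavenger receptor of resident macrophages, at 10.14 ± 0.15.

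Markers of blood cells and of other tissues were mostly dimmer. None of the 5 measured neutrophil markers had a mean above 4.85, and 8 of 10 markers of T and natural killer cells did, with CD8A, the coreceptor of cytotoxic T cells, highest at 6.86. Of 11 liver markers 5 were above background, of 8 brain markers 3, and of 12 markers of fast or skeletal muscle 6. The liver list included APOA1, the protein of high-density lipoprotein, at 9.71 ± 0.27 in all animals, while ALB, serum albumin, stood at 5.82. HBB, the beta chain of haemoglobin, which marks red blood cells, was between 7.85 and 8.80 in the 8 animals. FABP4, which capillary endothelium and fat cells share, stood at 11.58 ± 0.49.

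Most genes differed little between the 8 animals. Over the 5932 genes above background the median SD was 0.211, with quartiles of 0.153 and 0.301, and 324 genes (5.46%) had an SD of at least 0.5 while 29 had one of at least 1. The lowest and highest animal were at least 2-fold apart for 1144 genes (19.3%). The spread was smallest at the bright end: the median SD was 0.220 for genes with signals of 6 to 8 and 0.218 for 8 to 10, but 0.135 for 12 to 13, 0.098 for 13 to 14 and 0.056 for the 9 genes of 14 to 15. Signals near the top of an array are also compressed by saturation, so how far the steadiness of the brightest genes is that of their transcripts was not tested. Within set A the median SD was 0.156, and pooled within both sets 0.180.

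Among genes above the upper quartile of signal, EIF4H, which helps the RNA helicase of translation initiation, had the lowest SD, 0.021, with values from 11.15 to 11.21. FBL, the methyltransferase fibrillarin of the nucleolus, stood at 8.94 ± 0.04, PSMB7, a proteasome subunit, at 10.66 ± 0.04, PPP3CB, a catalytic subunit of calcineurin, at 9.87 ± 0.04, and MKNK1, a kinase of translation initiation, at 8.32 ± 0.04. RPS26, RPL38, EEF1G, ACTG1 and MYH7 completed the 10. Among 13 measured genes that laboratories use as references, YWHAZ (SD 1.30) and TFRC (SD 1.24) were at the other extreme and in the 25 most variable genes, whereas GAPDH had an SD of 0.06. YWHAZ and TFRC both differed between the spike-in sets, and their SDs pooled within sets were 0.63 and 0.74. YWHAZ has 2 probe sets, of which only the brighter is described, and TFRC has 1. GAPDH lies in the band of 14 to 15, where the highest SD was 0.066.

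**Figure D2:**
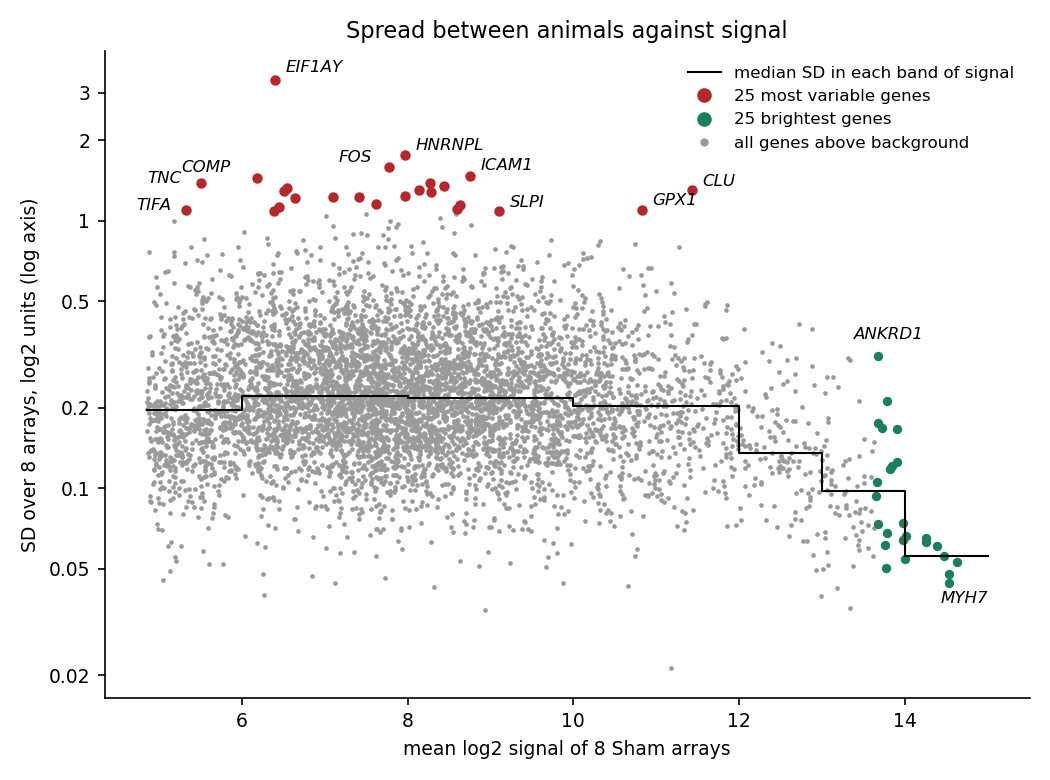
Each point is 1 of the 5932 genes above background, with its mean log2 signal of 8 Sham arrays (x axis) and its SD over the 8 arrays in log2 units (y axis, log scale); the 25 most variable and the 25 brightest genes are coloured, and the black line is the median SD in bands of signal. The median SD stays near 0.2 up to a signal of 12 and falls to 0.056 above 14, and EIF1AY lies highest at 3.35.

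The 25 most variable genes had SDs from 3.35 down to 1.08, with the 26th at 1.06. EIF1AY, a translation factor gene on the Y chromosome, came first, and its animals fell into the sexes. All 4 females were below background, so its mean passed the filter through the males alone. Of the 25, 10 were highest in Sham 8 and 6 in Sham 3. The test between spike-in sets was passed by 3 of them and that between the sexes by EIF1AY alone. Over all genes above background, 52 had their highest value at least 1 unit above the next animal, and 24 had their lowest value as far below. The 52 fell mainly on Sham 8 (23 genes) and Sham 3 (15 genes), and the 24 on Sham 7 (11 genes).

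**Figure D3:**
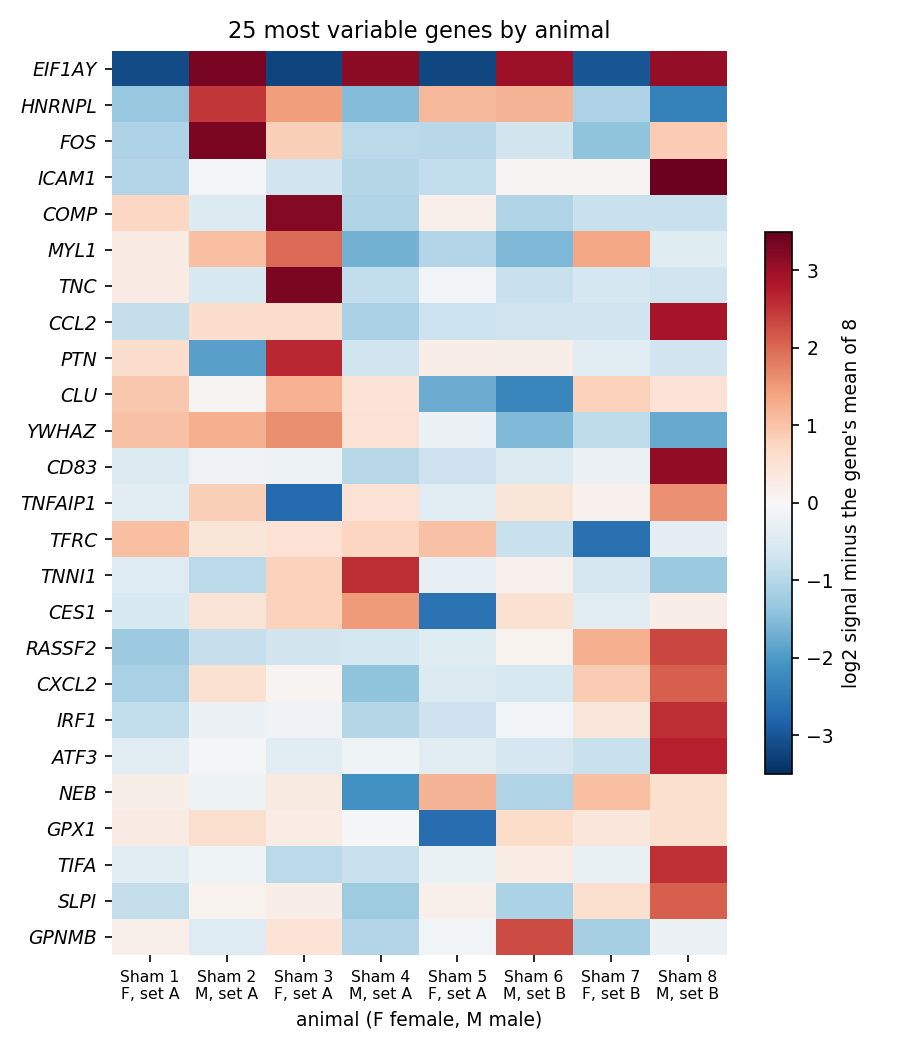
Heat map of the 25 most variable genes (rows, most variable at the top) in the 8 Sham animals (columns, with sex and spike-in set); colour gives the log2 signal minus the gene's mean over the 8. EIF1AY alternates with sex, a block of dark red in Sham 8 covers ICAM1, CCL2, CD83, IRF1, ATF3 and TIFA, and Sham 3 is dark red for COMP, TNC and PTN.

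Sham 8, a male of set B, had high signals of genes of inflammation, adhesion and interferon. ICAM1, the adhesion receptor that holds leukocytes to activated endothelium, was 12.19 in Sham 8 and between 7.73 and 8.84 in the other 7, which put Sham 8 10.2-fold above the next animal. VCAM1, the second major adhesion receptor of this kind, was 12.67 against 10.09 to 10.92. SELE, E-selectin, which activated endothelium makes, was 7.32 in Sham 8 and at most 4.27 in every other animal, where all values were under the background of 4.85. The 3 adhesion genes were all highest in Sham 8, which is a description because of how they were chosen. ICAM1 was named for its SD over the 8 animals, 1.47, which was 0.51 without Sham 8. VCAM1 and SELE, and below CXCL9, CD40, UBD, NFKBIA and S100A9, lie outside the rule by which genes were named and were chosen after their values were seen.

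Chemokines and regulators of inflammation showed the same animal. CCL2, which draws monocytes, was 11.33 in Sham 8 and 7.30 to 9.05 in the others. CXCL2, a neutrophil chemokine, was 9.70 against 6.20 to 8.50, and CCL4, a macrophage inflammatory protein, 9.90 against 7.44 to 8.75. IRF1, a transcription factor of the interferon response, was 11.22 in Sham 8 against 7.62 to 9.03, and the interferon-induced chemokine CXCL9 was 10.32 against 7.22 to 8.94. CD83, a surface marker of activated dendritic cells and lymphocytes, was 9.62 against 5.54 to 6.40, and its second probe set showed the same animal high (7.45 against 4.90 to 5.33). ATF3, a stress-induced transcription factor, was 9.16 against 5.66 to 6.37. TIFA, an adaptor that feeds the transcription factor NF-kB, was 7.88 against 4.38 to 5.58, and SLPI, a secreted protease inhibitor, 11.19 against 7.86 to 9.68. CD40, a receptor of immune activation, was 8.55 against 6.28 to 6.55, and UBD, a ubiquitin-like protein induced by cytokines, was 11.60 against 8.92 to 10.07.

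Sham 8 held the highest value of 10.5% of the 5932 genes, but of 8 of the 14 interferon response genes above background, 5 of 17 cytokines and chemokines, 6 of 10 macrophage markers and 6 of 17 genes of antigen presentation. Other animals shared some of these: Sham 3 was also highest in 5 of the 17 cytokines and chemokines and in 5 of the 14 interferon response genes, with medians of 0.30 and 0.42 above each gene's own mean against 0.45 and 0.51 in Sham 8. Sham 2 was also highest in 6 of the 17 genes of antigen presentation, with a median of 0.22 against 0.26 in Sham 8. These lists were chosen with earlier results of these data known, and the interferon list includes IRF1, so the counts are a description. In a list of NF-kB targets, written after these values had been seen and so no independent evidence, Sham 8 was highest in 12 of 17, with a median of 1.53 above each gene's own mean; NFKBIA, the inhibitor that NF-kB itself induces, was 11.00 in Sham 8 against 9.99 to 10.64. All 10 macrophage markers lay above their own mean in Sham 8, with a median of 0.26, and C1QA at 10.50 against 8.54 to 10.12 and CD163 at 10.37 against 9.84 to 10.24. Lymphocyte markers had a median of 0.34 above in Sham 8, with CD3E at 6.52, and 0.42 above in Sham 2, where CD3E was 6.62. Of the neutrophil markers, none of 5 had a mean above background, and S100A9, a calcium-binding protein of neutrophils and monocytes, was 5.01 in Sham 8 and 7.39 in Sham 6. The part of any cell type in the values of Sham 8 was not tested. The gap of the actin control in Sham 8 was 1.35, between those of the other 2 arrays of set B.

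Sham 3, a female of set A, had high signals of extracellular matrix genes. COMP, a cartilage matrix protein also made by activated fibroblasts, was 9.41 in Sham 3 and 5.13 to 6.90 in the other 7. TNC, tenascin C, a matrix protein of remodelling tissue, was 8.80 against 4.66 to 5.79, an 8.10-fold step over the next animal. PTN, pleiotrophin, a heparin-binding growth factor, was 9.19 in Sham 3, while the other animals ran from 4.63 in Sham 2 to 7.15 in Sham 1. The second probe sets of COMP (4.69 to 5.12) and PTN (3.70 to 4.00) were at or near background in every animal.

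Collagen-associated genes shared the pattern. POSTN, periostin, which activated fibroblasts secrete, was 11.95 in Sham 3 against 9.14 to 10.91, and COL1A2, a chain of type I collagen, 10.77 against 8.16 to 9.49. BGN, the proteoglycan biglycan, was 11.15 against 9.03 to 9.85, THBS2, thrombospondin 2, 10.26 against 7.98 to 8.94, and LOX, the enzyme that crosslinks collagen, 8.98 against 7.32 to 7.79. SFRP1, a secreted inhibitor of Wnt signalling, reached 9.50 against 6.95 to 8.43, TGFB3, a transforming growth factor, 8.61 against 6.37 to 7.60, and PRRX1, a transcription factor of mesenchymal cells, 7.52 against 5.21 to 5.96. BGN, THBS2, LOX, SFRP1, TGFB3 and PRRX1 were chosen after their values were seen. Of the 27 matrix genes above background, 16 were highest in Sham 3, where 10.5% of all genes were. This list holds TNC, BGN, COL1A2 and POSTN, already named for Sham 3. It was also chosen with earlier results of these data known, so the count is a description. The median matrix gene lay 0.53 above its own mean in Sham 3, and the other animals lay between -0.30 (Sham 5) and 0.15 (Sham 1). Fibroblast markers, of which 6 measured genes are also in the matrix list, showed 0.53 in Sham 3 and 0.31 in Sham 1, and DCN was highest in Sham 1 (13.07) with Sham 3 next (12.99). The spread of matrix genes was wide beyond Sham 3 as well: 13 of the 27 were among the 593 genes of highest SD, which are 10% of all genes above background by construction.

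Sham 7, a female of set B, had more of its genes at an extreme than any other animal. It held the lowest value of 24.2% of genes and the highest of 18.3%, and it had the lowest mean correlation with the other arrays (0.980, against 0.983 to 0.987). Its GAPDH gap between 3' and 5' probe sets was 0.13, against -0.32 to -0.09 in the other 7, and the part of this in its values was not tested. Vascular markers were high: 8 of 12 endothelial markers and 6 of 9 smooth muscle and pericyte markers were highest in Sham 7. The gene lists were chosen with earlier results of these data known, so such counts are a description. ENG, endoglin, a coreceptor of endothelial cells, was 10.10 in Sham 7 against 7.80 to 9.04, and VWF, the clotting factor that endothelium stores, was 10.19, with Sham 8 at 9.86 and Sham 6 at 9.53. CNN1, calponin of contractile smooth muscle, was 9.69 against 7.98 to 8.38, and MCAM, an adhesion protein of pericytes and endothelium, 8.90 against 7.23 to 7.81. The chemokine CXCL14 was 7.37 against 4.33 to 5.63. Of the 14 cell cycle genes above background 10 were highest in Sham 7, among them CCND2, a D-type cyclin (11.42 against 9.26 to 10.49).

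Several genes of calcium handling and mitochondria were lowest in the same animal, while the 17 sarcomere and Z-disc genes had a median of 0.01 from their own means there. As a list the calcium handling genes were mixed in Sham 7. Of the 12 above background, 5 were lowest there, beside 24.2% of all genes, and 2 were highest. Their median was -0.06 from their own means, and 6 of the 12 lay above them. CASQ2, the calcium store protein of cardiac sarcoplasmic reticulum, was 9.92 in Sham 7 and 11.19 to 11.55 in the others, and its dimmer second probe set was also lowest there (4.63 against 5.79 to 6.86). SLC8A1, the sodium-calcium exchanger, was 6.20 against 7.23 to 8.41. IDH3A, a subunit of isocitrate dehydrogenase, was 9.34 against 10.84 to 11.35, whereas its second probe set was 10.43 in Sham 7 against 10.64 to 11.34, a smaller gap. NDUFAF1, an assembly factor of respiratory complex I, was 6.59 against 7.60 to 8.46. CXCL14, CASQ2 and NDUFAF1 were chosen after their values were seen, as were EGR1, NR4A3, CILP and ACTC1 elsewhere in the text. Sham 7 was lowest in 26 of 54 genes of oxidative phosphorylation, 15 of 29 of fatty acid use and 11 of 23 of the citric acid cycle, beside 24.2% of all genes, but the sizes were small, with medians of -0.12, -0.18 and -0.13 from each gene's own mean.

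**Figure D4:**
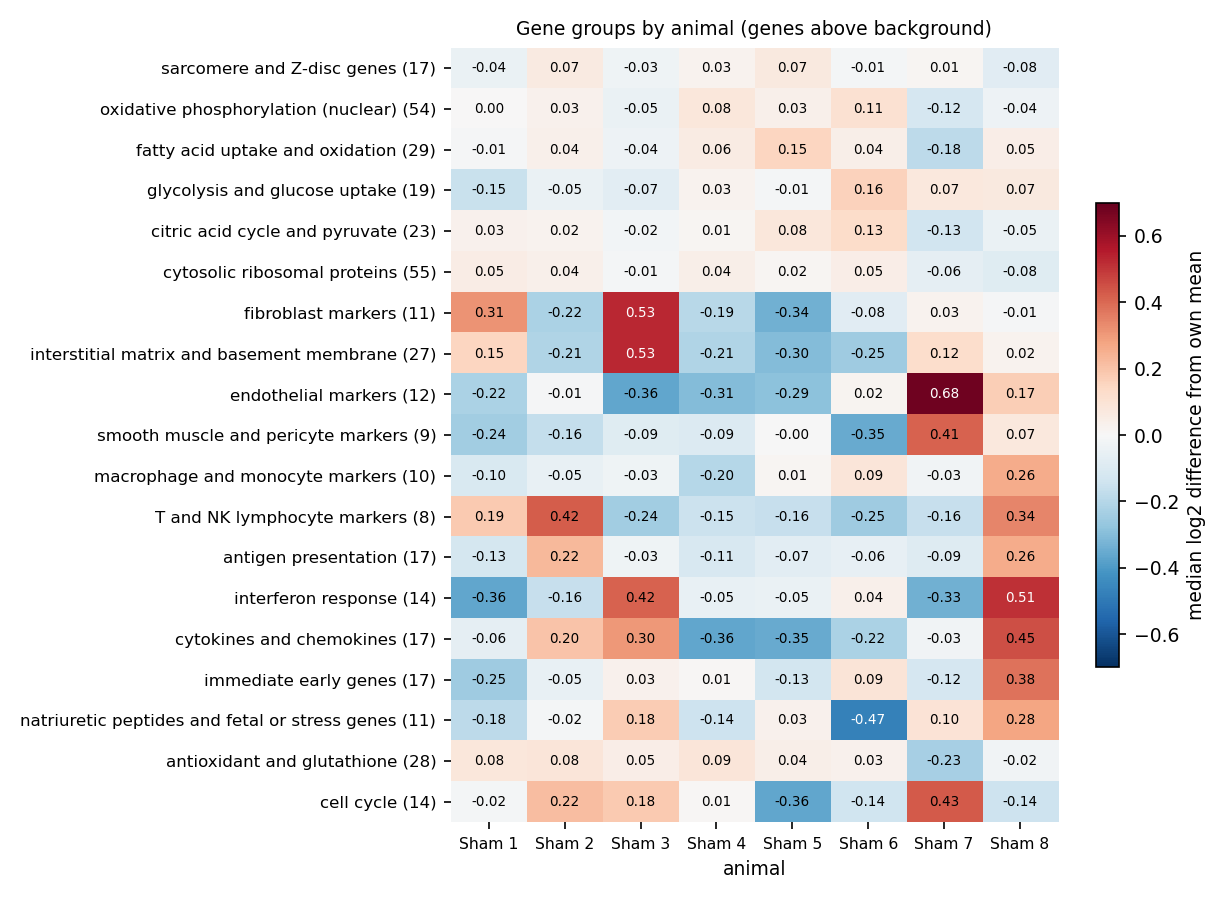
Heat map of 19 gene groups (rows, with the number of members above background) in the 8 Sham animals (columns); each cell gives the median over members of the log2 signal minus the gene's own mean over the 8 animals. Matrix genes are highest in Sham 3 (0.53), endothelial markers in Sham 7 (0.68) and interferon response genes in Sham 8 (0.51), while sarcomere genes stay between -0.08 and 0.07.

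Sham 2, a male of set A, had the highest FOS and the lowest PDK4 of the 8. FOS, a transcription factor induced within minutes of a stimulus, was 11.08 in Sham 2, with Sham 8 (8.67) and Sham 3 (8.60) next and the other 5 between 6.37 and 7.14. EGR1, another such factor, was 9.35 in Sham 2 and 9.11 in Sham 8 against 6.52 to 8.09 in the others. JUN, the partner of FOS, did not follow and was lowest in Sham 2 (9.91 against 10.64 to 11.31). PDK4, the kinase that shuts off pyruvate oxidation in fasting, was lowest in Sham 2, 9.70 against 10.78 to 12.24, and its second probe set agreed (7.62 against 8.94 to 10.65). Over the 17 immediate early genes above background, 9 were among the 593 most variable genes (10%). As a list they were not raised in Sham 2, where the median was -0.05 from each gene's own mean and 4 were highest; in Sham 8 the median was 0.38 above, and 5 were highest. Sham 2 held the lowest value of 7.96% of all genes and the highest of 11.6%.

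Sham 4, a male of set A, had the highest TNNI1, the slow skeletal and fetal troponin I (9.68 against 5.81 to 7.91), and the highest NR4A3, an early-response nuclear receptor (10.53 against 7.19 to 8.73). It had the lowest NEB, nebulin, the thin-filament ruler of skeletal muscle (6.49 against 7.56 to 9.80), the lowest CILP, a matrix protein (6.90 against 8.28 to 9.82), and the lowest values of 10 of 17 cytokines and chemokines, where 8.58% of all genes were lowest. Sham 5, a female of set A, had the lowest GPX1, a glutathione peroxidase (8.17 against 10.78 to 11.48), and the lowest CES1, a carboxylesterase (4.82 against 6.88 to 8.89), where 10.4% of all genes were lowest. It was highest in 13 of the 29 genes of fatty acid use, where 7.5% of all genes were, with a median of 0.15 above each gene's own mean. Sham 6, a male of set B, had the highest GPNMB, a glycoprotein of lipid-laden macrophages (8.68 against 5.22 to 6.87), although the other 4 probe sets of GPNMB were below background throughout. It was highest in 10 of 19 genes of glucose use and 21 of 54 of oxidative phosphorylation, where 19.3% of all genes were, with medians of 0.16 and 0.11. Sham 1, a female of set A, had no gene at least 1 unit above or below the next animal.

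MYL1, a light chain of fast muscle that the atria also carry in fetal life, formed a graded series from 6.61 in Sham 4 to 10.25 in Sham 3. CLU, clusterin, an extracellular chaperone, was 9.13 in Sham 6 and 9.68 in Sham 5 against 11.52 to 12.65 in the other 6. HNRNPL, a splicing regulator, was 9.11 to 10.44 in Sham 2, 3, 5 and 6 and 5.60 to 6.89 in Sham 1, 4, 7 and 8, a gap without intermediate values. TNFAIP1, an adaptor of a ubiquitin ligase, was low in 1 animal, at 5.56 in Sham 3 and 7.87 to 9.87 elsewhere. NPPB, the B-type natriuretic peptide that wall stress induces, ran from 6.11 in Sham 8 to 9.38 in Sham 3. CRYAB, a small heat shock protein of muscle, spread less, at 13.06 ± 0.26, as did FHL1, a protein of the stretch response, at 12.37 ± 0.30. Both SDs were above the medians of their bands of signal, 0.098 and 0.135. As a list, the 11 measured natriuretic peptide, fetal and stress genes spread widely. Their median SD was 0.46, and 6 of the 11 were among the 593 most variable genes (10% of all).

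Between spike-in sets, 1454 of 23999 probe sets (6.06%) passed limma's test at an adjusted p under 0.05, of which 813 (3.39%) were higher in set B and 641 (2.67%) lower; 496 of the 6765 genes (7.33%) passed, 344 higher (5.08%) and 152 lower (2.25%). The median size among the probe sets that passed was 0.62, and 160 differed at least 2-fold. The count fell when any animal but Sham 6 was left out: 702 passed without Sham 1, 879 without Sham 2, 961 without Sham 3, 859 without Sham 4, 953 without Sham 5, 846 without Sham 7 and 507 without Sham 8, against 1475 without Sham 6. At an adjusted p under 0.01, 226 passed. The spiked controls and the actin control differ between the sets as given above, and these cannot be told apart from differences between the animals of each set.

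The largest differences were in genes of varied function. RASSF2, a tumour suppressor of the Ras family, was 5.38 to 6.23 in set A and 6.78 to 8.98 in set B (difference 1.99, SE 0.40, limma adjusted p = 0.0237), while its dimmer second probe set differed by 0.18 and did not pass (limma adjusted p = 0.355). PTOV1 (1.57), MFSD14B (1.46), BLOC1S1, a subunit of a complex of lysosome biogenesis (1.43), the matrix signalling protein CYR61 (1.30) and the actin-binding protein of intercalated discs XIRP1 (1.30) were also higher in set B. YWHAZ, a 14-3-3 adaptor, fell by 2.23 in set B, from 7.94 to 9.76 in set A to 6.38 to 7.25 (SE 0.37, limma adjusted p = 0.0120). TFRC, the transferrin receptor, was 8.38 to 9.01 in set A and 5.35 to 7.63 in set B. PSMB3, a proteasome subunit, was 7.61 to 8.42 in set A and 6.37 to 6.68 in set B, and PPP1CA, a catalytic subunit of protein phosphatase 1, 7.51 to 8.03 and 6.32 to 6.48, with the same step in its second probe set (-1.76). SLMAP, a membrane protein of the sarcoplasmic reticulum, was 10.51 to 10.84 against 8.84 to 9.68. NPPB passed only narrowly (difference -1.53, limma adjusted p = 0.0486).

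None of the 25 brightest genes passed the test between sets, nor did any of the 17 sarcomere genes, the 54 of oxidative phosphorylation or the 58 ribosomal protein genes, beside 7.33% of all genes. At that share few of 17 or 25 genes would pass, and the brightest genes share members with the other lists. Signals near the top of the array are also compressed, and the part of this was not tested. By direction, 5.08% of all genes were higher in set B and 2.25% lower. Endothelial markers had 3 of 12 higher in set B, ENG and VWF among them, and none lower. Natriuretic peptide, fetal and stress genes had 3 of 11 higher and 1 lower, and genes of the glucocorticoid and fasting response 3 of 15 higher. Glycolysis had 4 of 19 higher, with GYS1, glycogen synthase, at 7.58 to 8.30 in set A and 8.45 to 8.95 in set B. Antigen presentation had 2 of 17 higher, SLA-7 and SLA-2, class I histocompatibility genes of the pig, and 1 lower. SLA genes are close copies of each other, so their probe sets may share signal.

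**Figure D5:**
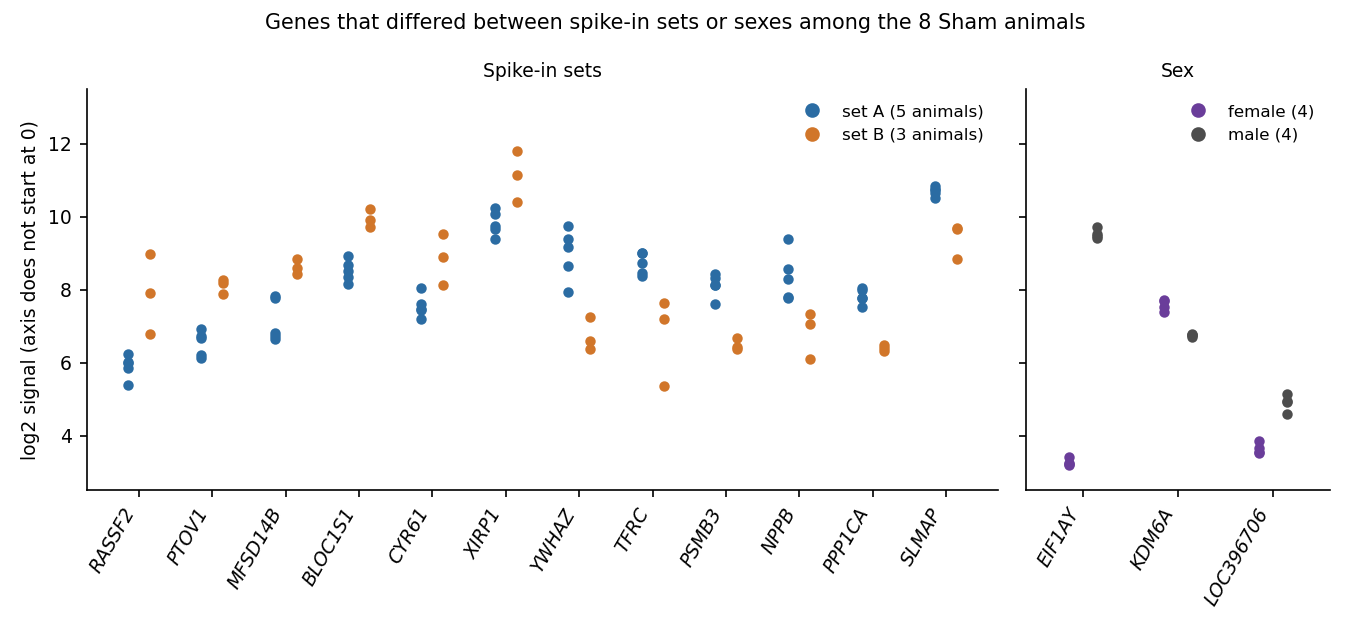
Log2 signal (y axis) of single animals for the 12 genes with the largest differences between spike-in sets (left panel, set A 5 animals and set B 3) and the 3 named genes that differed between the sexes (right panel, 4 females and 4 males). The 15 genes were chosen because they passed these tests, and their groups do not overlap. EIF1AY differs most, at 3.18 to 3.40 in females and 9.40 to 9.71 in males.

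Few probe sets passed the test between females and males. With 4 animals of each sex, spread unevenly over the spike-in sets, smaller differences could be missed. Of 23999 probe sets 14 (0.0583%) passed at an adjusted p under 0.05, 6 higher in females (0.025%) and 8 higher in males (0.0333%), and 783 had an unadjusted p under 0.05. Females and males overlapped in none of the 14, which were picked by this test. EIF1AY was 3.27 ± 0.10 in females and 9.53 ± 0.13 in males (SD, n = 4 each; limma adjusted p = 2.29e-09), and the 8 animals separated as their labels give their sex. LOC396706, which the RefSeq table places on the Y chromosome, was 3.65 in females and 4.90 in males, with an overall mean below background. KDM6A, a histone demethylase on the X chromosome that escapes inactivation, was higher in females, 7.39 to 7.72 against 6.69 to 6.79 (difference 0.83, SE 0.10, limma adjusted p = 0.0228), a call that was lost when any animal but Sham 3 was left out.

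KDM6A was the single one of 8 measured X genes known to escape inactivation that passed. TXLNG was 7.41 to 7.65 in females and 7.04 to 7.29 in males, without overlap but short of the threshold. EIF1AX, the X partner of EIF1AY, was 10.98 to 11.35 in females and 10.71 to 10.84 in males, also without overlap and short of it. ZFX, a zinc finger factor, was 5.01 to 6.34 in females and 6.72 to 7.48 in males and did not pass either. Its groups did not overlap, but males were higher. How often the sexes fail to overlap over all probe sets was not counted, so these ranges are a description only. The remaining 11 probe sets that passed had no single gene symbol; the largest difference in each direction was 10.09 in females against 3.41 in males and 3.28 in females against 9.58 in males.

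The genes most variable among Sham animals were in part variable among the 8 infarcted animals too. Of the 25, 19 were among the 10% most variable of the infarcted group and 7 in its first 25. Of the 3 that differed between the spike-in sets in Sham, YWHAZ and TFRC were among the 19, and RASSF2 was not. The part of the spike-in signal in the spread of the infarcted group was not tested. EIF1AY, which separates the sexes, had the highest SD in both groups, and each group held females and males. FOS (SD 1.59 in Sham, 2.37 in the infarcted group) and ATF3 (1.12 and 1.70) spread more in the infarcted group. ICAM1 (1.47 and 0.19), PTN (1.32 and 0.26), COMP (1.44 and 0.35) and TNFAIP1 (1.28 and 0.30) had the smallest SDs there relative to those in Sham. Each of these Sham SDs leaned on 1 animal. Without Sham 8 that of ICAM1 was 0.51. Without Sham 3 it was 0.84 for PTN, 0.67 for COMP and 0.70 for TNFAIP1. The 25 were chosen for a high SD in Sham, so smaller SDs in another group follow in part from the choice. Over all 5932 genes the median SD was 0.211 in Sham and 0.210 in the infarcted animals. No test was made of these spreads.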

How the data were processed

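The deposited values are normalised log2 signals of 24123 probe sets of an Affymetrix pig array on 16 arrays; which normalisation and genome build the authors used is not given here. All 16 columns had equal medians, and the values were used as deposited. The 8 Sham arrays were grouped by their titles. Genes were named from the platform annotation, and 6694 of the 6765 genes matched the RefSeq gene table by Entrez ID. Background was the highest Sham value of the 23 control probe sets without a target. A gene was read from its probe set of highest Sham mean, and its spread is the SD over 8 animals. For 2261 genes there was more than 1 probe set, and the text gives the further ones for only some of these genes. Females and males, and spike-in sets, were compared over all 23999 probe sets with limma 3.58.1 in R 4.3.3 (lmFit, eBayes, Benjamini-Hochberg adjustment, threshold 0.05), and array measures with two-sided exact permutation tests (scipy 1.17.1, Python 3.11.15). The limma fit was tested on simulated data. The labels do not say that each sample is a separate animal beyond its number, sex and age, so p-values measure the spread between these samples. No counts lie behind the values, and the number of arrays limits the precision.

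Genes named in the text were drawn, with the exceptions said there, from those a rule selected, not all of which are printed: the given markers, the 25 of highest signal, the 25 of highest and 10 of lowest SD, those differing by sex, the 6 largest per direction between sets, and in each list the 3 brightest and 2 most variable members. The members and the 47 gene lists were chosen with earlier results of these data known, and the NF-kB list was added after values were seen. Alternatives changed the normalisation, the filter on dim probe sets, an offset, the fit, the summary of a gene's probe sets and the animals included.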

Additional observations from a re-analysis of the deposited data

Results flagged for a closer look

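Of the 138 genes named above, 28 (20.3%) had 1 animal whose gap to the next exceeded Dixon's 95% critical value for 8 samples. Chance passes about 1 in 20 groups, and many of these genes were chosen for their spread or after their values were seen, so the share is a description.

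Sham 8 was the high animal for 10 genes, with ATF3 at 9.16, CCL2 at 11.33, CD40 at 8.55, CD83 at 9.62, ICAM1 at 12.19, IRF1 at 11.22, SELE at 7.32, TIFA at 7.88, UBD at 11.60 and VCAM1 at 12.67. It was the low animal for TPM1, at 13.45. Sham 3 was the high animal for 6 genes of matrix or mesenchymal cells, with BGN at 11.15, COMP at 9.41, LOX at 8.98, PRRX1 at 7.52, THBS2 at 10.26 and TNC at 8.80, and the low animal for TNFAIP1, at 5.56.

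Sham 7 was the high animal for CNN1 (9.69), CXCL14 (7.37) and MCAM (8.90) and the low animal for CASQ2 (9.92), IDH3A (9.34) and NDUFAF1 (6.59). Sham 6 was the high animal for S100A9, at 7.39, and the low animal for ANKRD1, at 12.96. Sham 4 was the high animal for NR4A3, at 10.53. Sham 5 was the low animal for GPX1, at 8.17. Neither Sham 1 nor Sham 2 was such an animal for any gene named.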

How the results depend on the processing

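The count of probe sets between spike-in sets was 1318 to 1499 under quantile normalisation, the background filter, an offset of 32 or a trended robust fit, 1225 with sex as a covariate, 226 at an adjusted p under 0.01, and 507 to 1475 with 1 animal left out. The count between the sexes was 10 to 14 under every alternative run. KDM6A lost its call with a trended robust fit (limma adjusted p = 0.0725). Of the 25 most variable genes, 7 were shared with the ranking by median absolute deviation, 13 with the SD in set A, and 16 to 24 with 1 animal left out, fewest without Sham 8. Of the 25 brightest, 17 were shared when all probe sets of a gene were averaged and 21 to 25 otherwise. Genes at least 1 unit highest numbered 21 to 28 for Sham 8 and 10 to 19 for Sham 3 over the alternatives run. The cause was not tested, beyond the fewer samples of the leave-outs and the stricter threshold. Among single genes and lists, 42 values with 1 animal left out and 19 under other alternatives no longer passed, and 0 reversed. No paired analysis was possible because the labels give no pairing between the Sham animals. Dim probe sets near 4.85 give little information on either level or spread.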

Other observations

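Heat shock and protein folding genes, not described above, had a median signal of 10.85 and a median SD of 0.171, and 27 of 28 measured were above background. Of the 27, 4 were among the 593 most variable genes (10% of all), and 9 were highest in Sham 7, where 18.3% of all genes were. Between the spike-in sets 3 were higher in set B and 1 lower, beside 7.33% of all genes that passed. Antioxidant and glutathione genes had a median of 10.02, all 28 measured were above background, and 15 of the 28 were lowest in Sham 7, where 24.2% of all genes were. Complement and coagulation genes had a median of 7.77, with 18 of 21 above background and 6 among the 593 most variable genes (10% of all).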
